A study of Homo sapiens with 30 samples.

Results

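To describe the repressive marks beside human centromeres after depletion of lncRNAs, the H3K27me3 and H3K9me3 ChIP-seq peaks that lie close to the centromere gaps of the reference genome were examined in HEK293T cells. A peak was a member when it was on chromosomes 1 to 22 and lay wholly within 3 Mb of the edge of a run of N of at least 2.5 Mb in the GRCh37 (hg19) sequence. These runs stand for centromeres, and for adjoining short arms or heterochromatin, that the assembly leaves unsequenced. There were 23 such gaps, because chromosome 21 has a pair of them. The windows beside them held 113 Mb of known sequence, 4.21% of chromosomes 1 to 22. In all, 15867 of the 331442 peaks of these chromosomes were members, and the lists hold 431864 peaks over all chromosomes and unplaced sequences.

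HEK293T is an established line of human embryonic kidney origin with SV40 large T antigen. It received antisense oligonucleotides (ASOs), which are short synthetic strands that lower a target RNA, and was fixed 48 hours after transfection. H3K27me3 was profiled with a negative control ASO (NC), with 1 LINC00641 ASO (ΔLINC00641) and with 1 SETD5-AS1 ASO (ΔSETD5-AS1), and H3K9me3 with NC and with a mix of LINC00662 ASOs (ΔLINC00662). ChIP and input gave 10 groups of 3 replicates, 30 samples, and the authors merged the replicates before they called the 5 peak lists, which leaves no replicate error and allows no test between groups. The lists hold no measure of the target RNAs, so the depletion itself was not checked here. Intervals are Wilson 95% intervals, which treat each peak as independent and hold the counting error alone.

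The sequence next to human centromeres is built from satellites, families of short units repeated in tandem. Alpha satellite, the main centromeric family, repeats a monomer, and some of its monomers carry the CENP-B box, the motif that the centromere protein CENP-B binds. Other arrays repeat the pentamer GGAAT. Satellites and the recent segmental duplications around them are classical sites of H3K9me3, which SUV39H and SETDB1 enzymes write and HP1 proteins bind. H3K27me3 is written by the Polycomb complex PRC2 and is better known from silent developmental genes.

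Each peak was put into a class by the GRCh37 sequence of the 1 kb around its summit. It was GGAAT-rich with at least 20 GGAAT or ATTCC per kb, and of alpha satellite type when at least 45% of its bases matched the base a monomer away, at a best spacing within 2 bases of the median of 171. Of the other peaks, those whose summit 36-mers had a median of at least 2 places in the genome were called other repeated sequence, and the rest unique. The peaks below come from 3 of these classes. Each but the last is the strongest of its class in NC by the −log10 q-value of the peak caller. That value is its adjusted significance over local input. The last, of H3K27me3 in unique sequence, is labelled strongest, but a stronger peak of that class is named at the end of the Results and not printed. The peaks are shown because the classes differ in the marks they carry and in their values after depletion. Each is plus-strand GRCh37 sequence centred on the summit, 5′ to 3′. Capitals mark GGAAT in the GGAAT-rich peak and, in the other peaks, the core of the CENP-B box, which was searched on both strands as TTCG, 4 free bases, A, 2 free bases and CGGG.
Strongest H3K9me3 peak rich in GGAAT, chr10:42599700-42599849: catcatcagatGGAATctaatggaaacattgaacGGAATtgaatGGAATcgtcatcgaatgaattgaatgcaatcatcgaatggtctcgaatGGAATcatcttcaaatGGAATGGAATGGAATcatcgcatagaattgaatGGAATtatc
Strongest H3K9me3 peak of alpha satellite type, chr1:121485034-121485333: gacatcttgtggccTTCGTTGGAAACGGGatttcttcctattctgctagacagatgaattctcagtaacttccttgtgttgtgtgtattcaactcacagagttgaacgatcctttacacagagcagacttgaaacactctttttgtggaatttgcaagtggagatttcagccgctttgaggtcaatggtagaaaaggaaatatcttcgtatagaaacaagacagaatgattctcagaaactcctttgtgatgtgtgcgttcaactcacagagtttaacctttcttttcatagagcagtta
Strongest H3K9me3 peak of unique sequence, chr19:27734322-27734471: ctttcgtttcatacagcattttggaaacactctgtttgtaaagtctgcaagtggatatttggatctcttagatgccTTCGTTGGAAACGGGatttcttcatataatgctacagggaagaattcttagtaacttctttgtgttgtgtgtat
Strongest H3K27me3 peak of alpha satellite type, chr7:61221367-61221666: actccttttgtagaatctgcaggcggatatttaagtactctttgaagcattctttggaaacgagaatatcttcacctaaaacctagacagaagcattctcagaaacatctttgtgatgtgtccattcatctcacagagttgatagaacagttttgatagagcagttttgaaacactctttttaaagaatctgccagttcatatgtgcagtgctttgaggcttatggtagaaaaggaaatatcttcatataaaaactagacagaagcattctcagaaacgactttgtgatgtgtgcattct
Strongest H3K27me3 peak of unique sequence, chr11:57227037-57227186: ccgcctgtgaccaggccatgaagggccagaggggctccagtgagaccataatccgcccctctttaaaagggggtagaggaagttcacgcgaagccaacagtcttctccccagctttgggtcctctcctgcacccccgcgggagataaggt

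The GGAAT-rich stretch, on chromosome 10, held 8 copies of GGAAT in 150 bases. The alpha satellite stretch with H3K9me3, on chromosome 1, and the chromosome 19 stretch each held 1 CENP-B box core. The chromosome 19 peak had 2 cores and 44.1% identity over its 1 kb, just under the threshold, so it was counted as unique although it resembles the alpha satellite type. The chromosome 7 stretch with H3K27me3 held no core, and identity over its 1 kb was 63.4%. The printed H3K27me3 peak of unique sequence was 889 bp from RTN4RL2, a gene for a Nogo receptor relative, and had a GC content of 61.5%.

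Over the windows as a whole H3K9me3 was denser than in the rest and H3K27me3 was sparser. In NC, 5243 of 75538 H3K9me3 peaks were members (6.94%, 6.76 to 7.12), above the 4.21% of the sequence that the windows hold. The density was 46.4 peaks per Mb in the windows and 27.3 per Mb in the rest, a ratio of 1.70, and it was higher in the window on 18 of 22 chromosomes. In NC, 2288 of 73667 H3K27me3 peaks were members (3.11%, 2.98 to 3.23), with 20.2 per Mb in the windows and 27.8 per Mb in the rest, a ratio of 0.730. On 5 of 22 chromosomes the H3K27me3 density was higher in the window. The median fold enrichment of members over the local input was 3.21 for H3K9me3 and 3.16 for H3K27me3, beside 3.21 and 3.3 in the rest. A member rested on few fragments, with a median of 19 at the summit in H3K27me3 NC, 22 in H3K9me3 NC and 19 to 21 in the knockdown lists.

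Chromosomes differed widely for both marks. The most H3K9me3 members in NC were on chromosome 7 (779), chromosome 19 (553) and chromosome 10 (453), and the densities ran from 16.3 per Mb on chromosome 11 to 134 per Mb on chromosome 7. Chromosome 19, which carries clusters of zinc finger genes, was dense over its whole length, with 92.2 per Mb in the window and 83.9 per Mb outside it. The most H3K27me3 members in NC were on chromosome 16 (319), chromosome 11 (264) and chromosome 2 (241). Chromosome 3 held 1 H3K27me3 member in NC, none in ΔLINC00641 and 3 in ΔSETD5-AS1. No chromosome was without a member of either mark in NC. On chromosome 21, 46.3% of all H3K27me3 peaks were members, and the window was 5.97 times as dense as the rest.

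**Figure D1:**
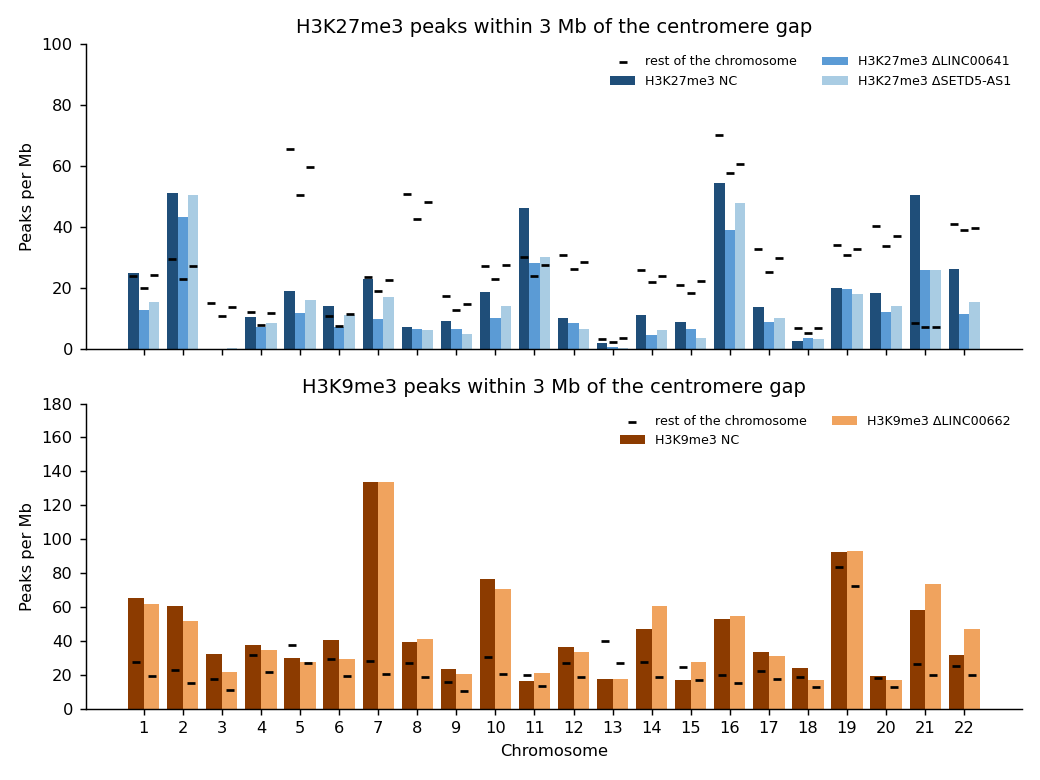
Peaks per Mb of known sequence within 3 Mb of the centromere gaps (bars) on each of 22 chromosomes for the 5 lists, with the density in the rest of the same chromosome as a black dash. H3K9me3 bars lie above the dash on 18 chromosomes in NC and on 21 in ΔLINC00662, and H3K27me3 NC bars on 5.

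In NC both marks were densest next to the gap. Within 0.1 Mb of the edge there were 111 H3K9me3 peaks per Mb in NC, and the density was 42.7 between 1 and 1.5 Mb and 36.2 between 2.5 and 3 Mb. H3K27me3 in NC went from 46.1 per Mb within 0.1 Mb to 8.23 per Mb between 1 and 1.5 Mb, and was 15.4 per Mb between 2.5 and 3 Mb. Within 0.5 Mb of an edge there were 808 H3K27me3 members in NC, 168 of them on chromosome 21, 102 on chromosome 2 and 83 on chromosome 7, and none on chromosomes 3, 5 and 9. H3K9me3 had 1443 members there in NC, on every chromosome, from 9 on chromosome 9 to 175 on chromosome 21.

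**Figure D2:**
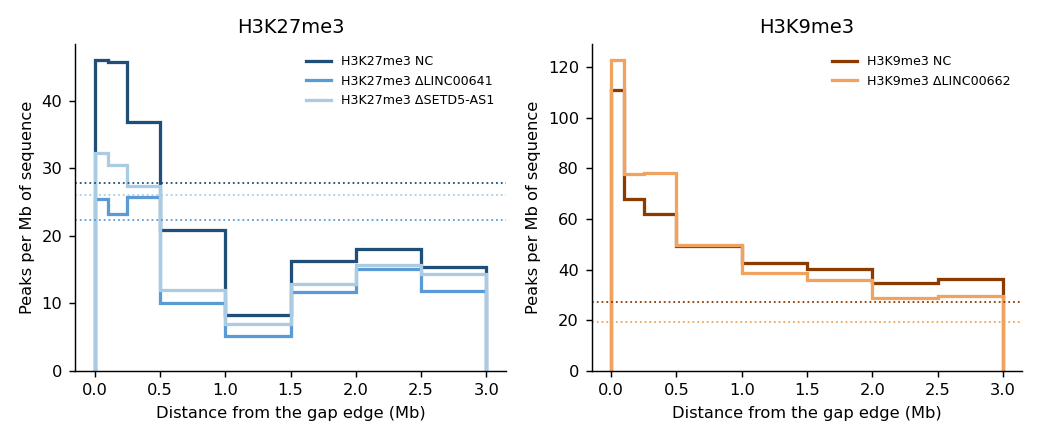
Peaks per Mb of known sequence by the distance of the summit from the gap edge in Mb, for the H3K27me3 lists (left) and the H3K9me3 lists (right). Dotted lines give the density in the rest of chromosomes 1 to 22. All 5 lists are densest within 0.5 Mb, and of these lists only those of H3K9me3 stay above their dotted lines at every distance.

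In blocks of 0.5 Mb counted from the gap edges, 91 of 237 blocks held no H3K27me3 peak in NC, and 10 blocks held 32.6% of all members. Named here after their values were seen, 4 of the 6 blocks best covered by H3K27me3 in NC also carried much H3K9me3. On the short arm side of chromosome 2, H3K27me3 covered 22.7% of the block between 1.5 and 2 Mb from the gap, 18.1% of that between 0.5 and 1 Mb and 16.5% of that within 0.5 Mb, and H3K9me3 18.2%, 14.6% and 11.4%. The chromosome 21 block with TPTE, next to the gap, had 13.7% and 19.0%. The other two blocks had little H3K9me3. The block with CBLN1 on chromosome 16, a gene for a secreted synapse organiser, lay between 2.5 and 3 Mb from the gap. It held 119 H3K27me3 peaks over 19.3% of its sequence in NC, 107 peaks in ΔLINC00641 and 133 in ΔSETD5-AS1, and 6 H3K9me3 peaks over 0.503% in NC. The block with the genes SSRP1, APLNR and P2RX3 on chromosome 11 held 75, 60 and 64 H3K27me3 peaks and had H3K9me3 over 1.46% in NC. H3K9me3 was spread more evenly, with 1 block without a peak in NC and 18.1% of members in the 10 fullest blocks. The block best covered by H3K9me3 was on the short arm side of chromosome 1, next to the gap, with 81 peaks over 19.1% of its sequence in NC and no protein-coding gene.

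The marks shared sequence next to the gaps. In NC, 536 of 2288 H3K27me3 members overlapped an H3K9me3 peak (23.4%, 21.7 to 25.2), beside 9.49% of H3K27me3 peaks in the rest. The shared 249 kb were 16.6% of the H3K27me3 base pairs in the windows, beside 5.50% in the rest. Of the H3K9me3 members, 10.3% (9.47 to 11.1) overlapped an H3K27me3 peak, beside 9.90% in the rest. The share of H3K27me3 members with H3K9me3 was 60.2% on chromosome 7, 48.9% on chromosome 9 and 42.6% on chromosome 4, but 7.20% on chromosome 11. The strongest H3K27me3 member in NC was such a place, at chr2:91660370-91663041, with a fold enrichment of 5.75 for H3K27me3 and 5.48 for H3K9me3. It was intergenic, 22579 bp from the pseudogene AC018696.3, and local input there was 4.79 times the genome-wide level. Local input, the background that the peak caller set against the ChIP signal, was recovered for each peak from its fold enrichment and p-value. It exceeded the genome-wide level by over 5 times at 3.54% of H3K27me3 and 4.86% of H3K9me3 members in NC, beside 0.269% and 1.22% in the rest.

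H3K9me3 sat on satellites of many chromosomes. In NC, 306 of 5243 members were of alpha satellite type (5.84%, 5.23 to 6.50), on 19 chromosomes, with 80 on chromosome 7, 41 on chromosome 1 and 20 on chromosome 16. A further 137 were GGAAT-rich (2.61%, 2.21 to 3.08), on 9 chromosomes, with 27 each on chromosomes 4 and 16. Of the 1 kb tiles of the windows, 4.50% were of alpha satellite type and 0.670% GGAAT-rich, and of every 20th tile of the rest 0.0381% and 0.00311%. A CENP-B box core was found around 173 H3K9me3 summits (3.3%), in 0.573% of the tiles in the windows and in 0.0280% of those in the rest. The satellite peaks were among the tallest, with a highest fold enrichment of 19.3 for alpha satellite type and 32.9 for GGAAT-rich peaks, beside 8.83 for unique sequence. Their median fold enrichments were 4.53, 4.72 and 3.11.

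Of the H3K27me3 members in NC 50.1% were unique, 46.7% other repeated sequence, 2.93% (2.31 to 3.70) of alpha satellite type and 0.219% GGAAT-rich. Of the tiles in the windows 67.2% were unique and 27.6% other repeated sequence, and of the H3K27me3 peaks in the rest 87.3% and 12.6%. The measures differ, because a tile was judged by its central 36-mer alone and a peak by the median of 5 around its summit. The H3K27me3 members of alpha satellite type were on chromosome 7 alone in NC. All 67 of alpha satellite type were on the long arm side of that chromosome, between 45.1 and 190 kb from the gap. Of these, 59 overlapped an H3K9me3 peak, and 30 had a CENP-B box core within their 1 kb. Alpha satellite tiles were as many on chromosome 11 (923) as on chromosome 7 (923), and chromosome 11 held 13 H3K9me3 and no H3K27me3 member of that type in NC. The first 200 kb of the chromosome 7 long arm were 85.0% alpha satellite tiles, and their central 36-mers had a median of 41.0 places in the genome. The H3K27me3 members there had fold enrichments from 1.67 to 5.20 in NC (median 3.0) over a local input of 3.20 times the genome-wide level (median). The 72 H3K9me3 members of the same stretch had 2.83 to 13.1 (median 5.29), over a local input of 1.00 times. The part of the local input in the H3K27me3 values was not tested. Outside chromosome 7 the knockdown lists held 2 such members each, on chromosome 22 in ΔLINC00641 and on chromosomes 16 and 21 in ΔSETD5-AS1.

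**Figure D3:**
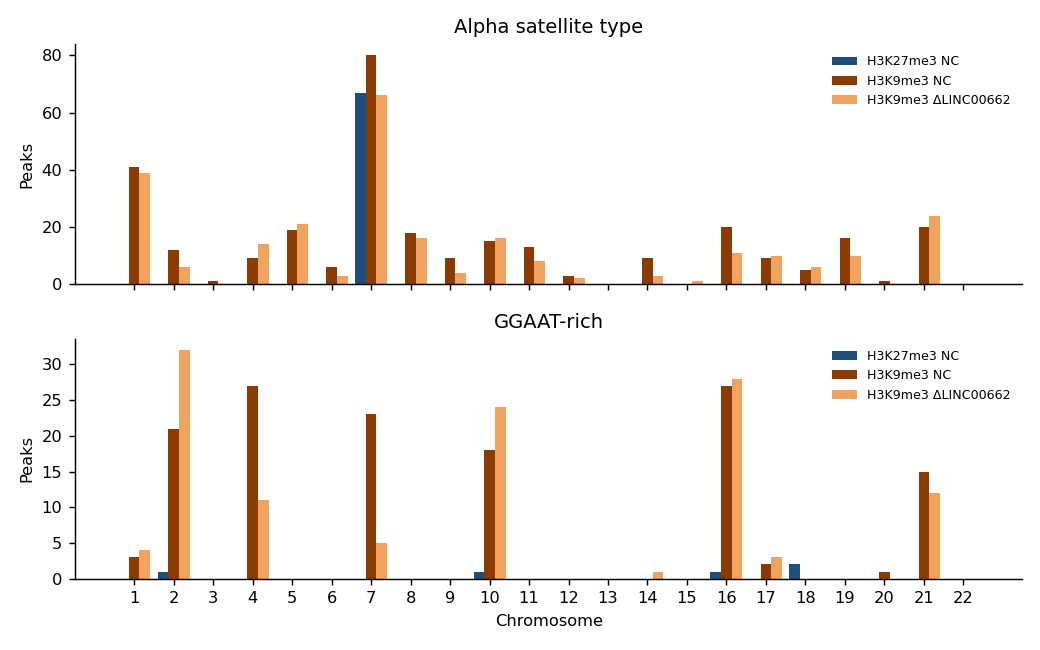
Number of members of alpha satellite type (top) and of GGAAT-rich members (bottom) on each of 22 chromosomes, for H3K27me3 NC, H3K9me3 NC and H3K9me3 ΔLINC00662. The 67 H3K27me3 NC members of alpha satellite type are all on chromosome 7, where H3K9me3 NC has 80.

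The strongest of these H3K27me3 peaks was at chr7:61221378-61221771, where 81 ChIP fragments lay over the summit in NC. Its fold enrichment was 5.20 in NC, 3.51 upon depletion of LINC00641 and 3.43 upon that of SETD5-AS1. H3K9me3 at the same place was 8.12 in NC and 4.55 in ΔLINC00662. Over the first 200 kb, the H3K27me3 members numbered 67 (NC), 24 (ΔLINC00641) and 55 (ΔSETD5-AS1), and covered 37.2, 10.7 and 30.4 kb. In ΔLINC00641 35.8% (25.4 to 47.8) of the NC members of alpha satellite type overlapped a peak, and in ΔSETD5-AS1 71.6% (59.9 to 81.0). At the pairs the median log2 ratio of fold enrichment was −0.07 in ΔLINC00641 (21 pairs) and 0.04 in ΔSETD5-AS1 (45 pairs), while ChIP and local input, each relative to the genome-wide level of its list, were both lower. The median log2 ratio of summit fragments was −0.41 with 19 of 21 pairs lower (ΔLINC00641) and −0.40 with 42 of 45 lower (ΔSETD5-AS1), and that of local input was −0.40 and −0.51. Over all window pairs in the lowest of 5 groups by GC content, the summit ratio was −0.32 (160 of 194 lower) and −0.40 (220 of 253 lower). At unique pairs of the windows it was 0.03 and −0.20.

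In NC 36.5% of H3K27me3 and 38.5% of H3K9me3 members lay in an annotated gene, beside 56.0% and 57.2% of peaks in the rest. Within 1 kb of an annotated start were 8.74% and 8.03%, beside 4.37% and 4.28% in the rest. Counted by genes, 5.96% of all annotated genes in the windows had an H3K27me3 NC peak there, beside 5.97% in the rest. For H3K9me3 in NC the shares of genes were 14.2% and 6.53%. Gene families differed in the mark they carried. Zinc finger genes, many of which encode DNA-binding repressors, are known H3K9me3 targets. They were counted by symbols starting with ZNF, which includes pseudogenes and noncoding genes such as ZNF32-AS1. Of the 76 in the windows 47 were protein-coding, and a peak can count for more than 1 overlapping gene. Among the 76, 56 had an H3K9me3 peak in NC and 55 in ΔLINC00662, and 3 had an H3K27me3 peak in NC. Outside the windows the share in NC was 66.0% of 583 zinc finger genes, beside 73.7% inside. Of all 700 protein-coding genes in the windows 218 had an H3K9me3 peak in NC, 203 had one in ΔLINC00662 and 66 had an H3K27me3 peak in NC. Of 905 lncRNA genes the numbers were 275, 286 and 124. The 5 protein-coding genes of at least 5 kb best covered by H3K9me3 in NC were ZNF32 (76.0% of its length), ZNF724 (48.9%), ZNF514 (37.9%), ZNF892 (37.4%) and POMK (27.6%), which encodes a kinase that modifies dystroglycan sugars. In ΔLINC00662 the covered shares were 29.8%, 24.1%, 14.5%, 17.5% and 18.9%. The genes were chosen for their coverage in NC, which by itself favours lower values in the other list. At ZNF32 the highest fold enrichment was 8.12 in NC and 4.49 in ΔLINC00662, and at ZNF724 it was 7.21 and 7.11. ZNF32-AS1 and ZNF32-AS2, noncoding genes that overlap ZNF32, share its peaks and were covered over 100% and 86.7% in NC.

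The genes below were ranked by the share of their length under H3K27me3 in NC, a choice that by itself favours lower shares in the other lists. The best covered protein-coding genes of at least 5 kb in NC were DEFB118 (27.2%) and DEFB119 (22.2%), beta-defensins on chromosome 20, ENSG00000254979 on chromosome 11 (19.4%), and the olfactory receptors OR9G4 (15.1%) and OR8J3 (13.6%). In ΔLINC00641 they were covered over 12%, 6.33%, 25.1%, 0% and 6.66%, and in ΔSETD5-AS1 over 1.71%, 15.5%, 23.0%, 8.48% and 0%. Of 187 olfactory receptor genes and pseudogenes in the windows, 17 had an H3K27me3 peak in NC, 17 with ΔLINC00641 and 11 with ΔSETD5-AS1, whereas outside the windows 28% of 668 had one in NC. The NC share in the windows, 9.09%, was close to the 9.20% of all annotated genes there. In the knockdowns the olfactory receptor shares were 9.09% (ΔLINC00641) and 5.88% (ΔSETD5-AS1), beside 7.15% and 7.59% of all annotated genes. OR5M10 (73.0%), OR9G2P (63.6%) and OR5L2 (46.3%) were the best covered in NC. Of 119 immunoglobulin genes and pseudogenes, 20 had an H3K27me3 peak in NC (16.8%, beside 19.2% of 281 outside the windows), 14 with ΔLINC00641 and 18 with ΔSETD5-AS1. H3K9me3 peaks were at 5 olfactory receptor and 1 immunoglobulin genes in NC. IGKV1-17, IGKV1-37 and IGKV2D-40, variable segments of the kappa light chain on chromosome 2, were covered in full in NC.

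Families that segmental duplication has spread next to centromeres held genes with either mark, and their counts are read beside the 9.20% (H3K27me3) and 21.2% (H3K9me3) of all 3806 annotated genes in the windows with a peak in NC. POTE genes, expressed in testis and some tumours, had an H3K27me3 peak at 4 of 10 and an H3K9me3 peak at 5 of 10 in NC, ANKRD20A, ANKRD26 and ANKRD30 genes at 4 and 9 of 15, TPTE and BAGE genes at 3 and 4 of 5, and FAM27, FRG1, FRG2, CNTNAP3 and AQP7 duplicates at 3 and 4 of 24. The last set, at 12.5% and 16.7%, was close to or below the share of all genes, and of 6 POTE genes outside the windows 2 and 3 had a peak. POTEH on chromosome 22 had 3 H3K27me3 and 5 H3K9me3 peaks in NC. POTEH-AS1, an antisense gene within POTEH, shares its peaks and is counted as a POTE gene of its own. Of the 15 ANKRD genes 3 were protein-coding. BAGE2 on chromosome 21, a pseudogene of a tumour antigen family, was covered by H3K27me3 over 33.2% (NC), 11.9% (ΔLINC00641) and 14.4% (ΔSETD5-AS1), and by H3K9me3 over 5.92% in NC and 10.2% in ΔLINC00662. The neighbouring TPTE, a phosphatase-related gene of testis, had 12, 5 and 5 H3K27me3 peaks and 6 and 13 H3K9me3 peaks. ANKRD30BP2, also on chromosome 21, was covered by H3K27me3 over 13.5%, 5.49% and 8.57%, and by H3K9me3 over 13.1% and 13.2%. FRG1JP on chromosome 9, a copy of the muscle gene FRG1, had 7, 1 and 2 H3K27me3 peaks. FRG1KP lies within FRG1JP and is counted as a gene of its own. No NBPF, SPATA31 or GOLGA6 and GOLGA8 gene in the windows had an H3K27me3 peak in NC, among 5, 2 and 5 annotated genes, 1 NBPF gene had an H3K9me3 peak, and no FOXD4L gene lay in the windows. These genes have near-identical copies, between which reads cannot be placed with certainty.

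Upon depletion of LINC00641, H3K27me3 peaks were fewer in the windows by more than in the rest. There were 1496 members against 2288 in NC, a number ratio of 0.654, and the ratio in the rest was 0.803. It was below 1 on 21 of 22 chromosomes, and among those with at least 40 NC members it ran from 0.436 on chromosome 7 to 0.983 on chromosome 19. Of the NC members, 1378 had no overlapping peak in ΔLINC00641 (60.2%, 58.2 to 62.2), whereas 48.4% of all NC peaks of chromosomes 1 to 22 had none and 48.0% of those in the rest. Of the ΔLINC00641 members, 36.8% (34.4 to 39.2) had no NC peak, beside 34.3% of all its peaks, an order that turned at −log10 q-values of at least 5 (39.0%, and 45.9% in the rest). At 726 pairs, in which a peak of each list met a single peak of the other, the median log2 ratio of fold enrichment was −0.03, with an SD of 0.10 over chromosomes. Of these pairs 8.13% were at least 1.5 times lower and 5.37% at least 1.5 times higher, beside 6.33% and 7.02% of all pairs. Of the strongest NC members, the top of 5 groups by −log10 q-value, 65.8% overlapped a ΔLINC00641 peak, beside 82.0% of those in the rest.

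Depletion of SETD5-AS1 gave values on the same side, and the comparison shares the NC list with that of LINC00641. There were 1728 members, a number ratio of 0.755, beside 0.940 in the rest. It was below 1 on 20 of 22 chromosomes. Among those with at least 40 NC members chromosome 21 had the lowest ratio (0.513) and chromosome 2 the highest (0.988). By class the number ratio was 0.795 in unique sequence (0.931 in the rest) and 0.709 in other repeated sequence (1.00 in the rest). For the alpha satellite type in the windows it was 0.836. Of the NC members 57.4% (55.4 to 59.4) had no peak in ΔSETD5-AS1, beside 45.0% of all NC peaks, and 41.3% of the ΔSETD5-AS1 members had no NC peak, beside 39.5% of all its peaks, an order that turned at the same limit (43.3%, and 49.6% in the rest). At 787 pairs the median log2 ratio was −0.09 with an SD of 0.08 over chromosomes, the rest being at −0.08. Of the strongest NC members 72.0% overlapped a ΔSETD5-AS1 peak, beside 83.2% in the rest. Pairs at least 1.5 times lower made up 10.9% and those at least 1.5 times higher 4.83%, beside 8.79% and 4.21% of all pairs. On chromosome 21, which held the most NC members within 0.5 Mb of a gap, there were 224 members (NC), 114 (ΔLINC00641) and 115 (ΔSETD5-AS1).

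The H3K27me3 members named next, the strongest of each list and the 2 strongest lost and new of each comparison, were intergenic or in introns of lncRNA genes. The strongest ΔLINC00641 member, at chr19:29377434-29381519 in an intron of the lncRNA LINC00906, had a fold enrichment of 8.21 there, 5.12 in NC and 4.08 in ΔSETD5-AS1. The strongest ΔSETD5-AS1 member was the chromosome 2 place named above, at 6.20 there, 5.75 in NC and 5.11 in ΔLINC00641. An NC peak at chr9:66463972-66464359, in an intron of LINC01410, had a fold enrichment of 3.61 and no peak in ΔLINC00641, whose nearest peak was 433 bp away. The nearby NC peak chr9:66463138-66463561 had 4.01 and none in ΔSETD5-AS1, whose nearest peak was 1263 bp away. Among new members, chr16:46391266-46391637 lay in GGAAT-rich sequence 5.65 kb from the gap, with a fold enrichment of 1.47 in ΔLINC00641 over a local input of 138 times the genome-wide level, and carried H3K9me3 in NC at 11.3. The new ΔLINC00641 member chr2:90449606-90449922 had 3.76, and 2.94 in ΔSETD5-AS1. The nearest NC peak was 70307 bp from the chromosome 16 member and 708 bp from the chromosome 2 member. The new ΔSETD5-AS1 members were chr2:91923041-91923507, at 4.68, and chr7:61141544-61142146 in alpha satellite, at 5.55. Their nearest NC peaks were 278 and 875 bp away.

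The GC content of the peaks moved with these ratios. In 5 groups by GC content, cut at the same values in the windows and in the rest, the number ratio in the windows for ΔLINC00641 was 0.396, 0.468, 0.651, 0.856 and 1.03 from the lowest to the highest group, and in the rest 0.418, 0.700, 0.887, 1.03 and 1.18. For ΔSETD5-AS1 it was 0.594, 0.714, 0.753, 0.958 and 0.867 in the windows and 0.618, 0.894, 1.04, 1.12 and 1.13 in the rest. The ratio in the windows was below that in the rest in every group of both comparisons. The part of GC content in the difference between lists was not tested.

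H3K9me3 upon depletion of LINC00662 differed from this pattern. There were 5112 members against 5243 in NC, a number ratio of 0.975, whereas the ratio in the rest was 0.704 and lay below 1 on 22 of 22 chromosomes. In the windows it was below 1 on 12 chromosomes and above 1 on 8, from 0.674 on chromosome 3 to 1.62 on chromosome 15, and within 1 Mb of the gaps it was 1.11 over all chromosomes. The acrocentric chromosomes, whose short arms are heterochromatin and ribosomal DNA, had 1.00 (chromosome 13), 1.28 (chromosome 14), 1.62 (chromosome 15), 1.26 (chromosome 21) and 1.47 (chromosome 22). Of the NC members, 49.0% (47.7 to 50.4) had no peak in ΔLINC00662, beside 62.0% of all NC peaks and 63.0% in the rest. Of the ΔLINC00662 members 45.5% had no NC peak, beside 44.7% of all its peaks. In all, 9.36% (9.12 to 9.61) of the ΔLINC00662 peaks were members, beside 6.94% in NC, and the density in the windows was 45.2 per Mb, 2.35 times that of the rest.

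**Figure D4:**
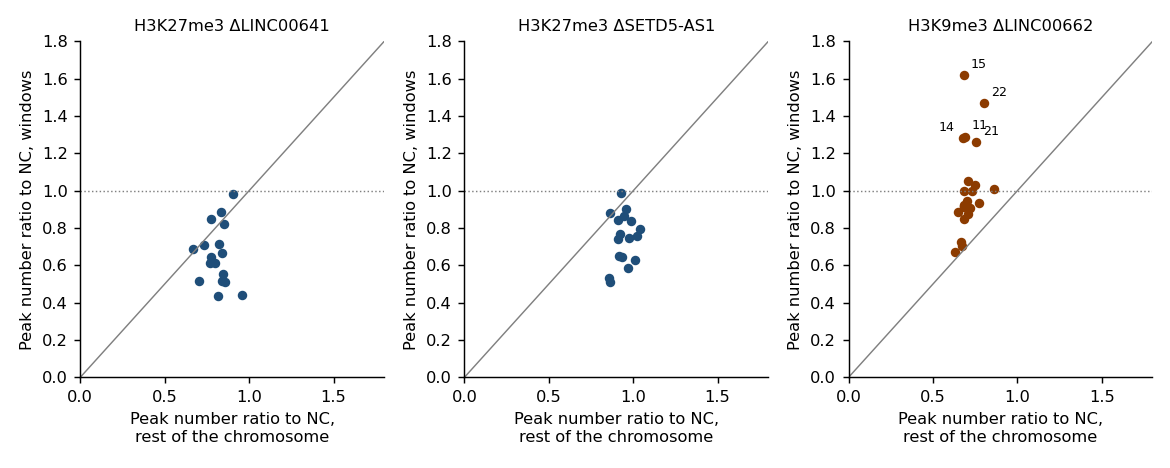
Number of knockdown peaks divided by the number of NC peaks in the windows (vertical axis) and in the rest of the same chromosome (horizontal axis), for chromosomes with at least 40 NC members. The grey line marks equal ratios and the dotted line a ratio of 1. Most points of the H3K27me3 panels lie below the grey line and the ΔLINC00662 points over it, with chromosomes 11, 14, 15, 21 and 22 at 1.26 or more.

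The number ratio was above that of the rest in every GC group. From the lowest to the highest GC group the ratio was 0.592, 0.791, 1.07, 1.17 and 1.40 in the windows and 0.265, 0.508, 0.789, 1.07 and 1.29 in the rest. Within 0.1 Mb of the gaps there were 123 peaks per Mb in ΔLINC00662 and 111 in NC, and between 2.5 and 3 Mb 29.5 and 36.2. Local input moved with it as well. Members with such a raised input, over 5 times the level, made up 4.86% in NC and 7.16% in ΔLINC00662. Their number ratio was 1.44, beside 1.19 for members above the genome-wide level by up to 5 times and 0.554 for members at that level. Peaks in the rest had number ratios of 0.909, 0.861 and 0.375 in the same order. The part of the input in these values was not tested.

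The fold enrichment of paired H3K9me3 peaks over local input differed little over the windows as a whole and was lower on satellites. Over all 2281 pairs the median log2 ratio of fold enrichment was 0.02 (SD 0.09 over chromosomes), and 8.29% of pairs were at least 1.5 times lower and 11.7% at least 1.5 times higher, beside 8.83% and 10.4% of all pairs. By class the median was 0.05 at 945 unique pairs and 0.05 at 1126 pairs of other repeated sequence. At 171 alpha satellite pairs it was −0.25 (quartiles −0.50 and 0.02), with 125 lower in ΔLINC00662. At 39 GGAAT-rich pairs it was −0.94 (quartiles −1.32 and 0.05), with 29 lower. In the lowest GC group of the windows the median over all classes was −0.20.

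**Figure D5:**
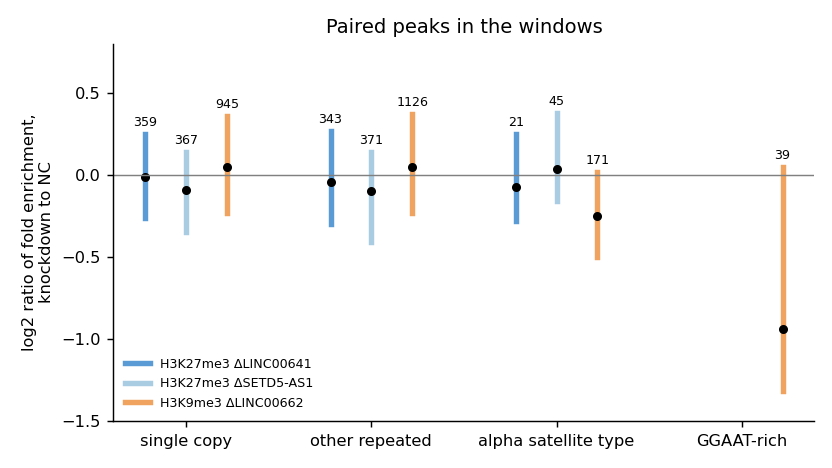
Log2 ratio of fold enrichment, knockdown to NC, at paired peaks in the windows by sequence class. Points are medians, bars run between the quartiles, and the number of pairs is printed above each bar. For H3K9me3 in ΔLINC00662 the median is −0.94 at GGAAT-rich pairs and −0.25 at alpha satellite pairs, and 0.05 in the other classes. Classes with fewer than 5 pairs are not drawn.

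The difference was large at the tallest GGAAT-rich peaks. The pairs named next were chosen after their values were seen and for a high value in NC, a choice that by itself favours a lower value in the other list. At chr10:42386903-42388568 the fold enrichment was 32.9 in NC and 9.49 in ΔLINC00662, and at chr10:42395733-42397222 it was 27.2 and 7.94. At the printed chromosome 10 peak, chr10:42599301-42600558, the strongest H3K9me3 member of both lists, it was 15.7 and 7.81. At chr16:46416556-46417762 it was 21.0 and 7.42, and at chr2:90389360-90390638 17.3 and 4.83. All 8 GGAAT-rich pairs on chromosome 10 and all 5 on chromosome 2 were lower in ΔLINC00662, with median log2 ratios of −1.28 and −1.60. On chromosome 16, 8 of 9 were lower (−0.97), and on chromosome 4, 4 of 6 (−0.76). Chromosome 21 differed, with 1 of 6 lower and a median of 0.32. Over all GGAAT-rich members, paired or not, the median fold enrichment was 4.72 in both lists, and the highest was 32.9 in NC and 16.7 in ΔLINC00662. Of the 137 NC members 46.7% (38.6 to 55.0) overlapped a ΔLINC00662 peak.

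Fold enrichment divides ChIP by local input, and both moved at these peaks. At GGAAT-rich pairs the summit fragments relative to the genome-wide level had a median log2 ratio of −0.55 and local input one of 0.43. At the chr10:42386903-42388568 peak the ChIP summit was 1850 times the genome-wide level in NC and 737 times in ΔLINC00662, and local input 56.0 and 77.4 times. At alpha satellite pairs the ChIP ratio was 0.05 and the input ratio 0.32 over all 171 pairs. Chromosomes differed in this, and the 8 pairs of chromosome 10, all lower in fold enrichment (−0.84), had a ChIP ratio of −0.46 and an input ratio of 0.34. At chr1:121483084-121485428, the printed alpha satellite peak, the fold enrichment was 4.42 in NC over a local input of 1615 times the genome-wide level, and 3.26 in ΔLINC00662. At chr19:27731836-27733457 it was 5.61 and 3.88. The chromosome 7 alpha satellite pairs had no higher input, with a median input ratio of 0.00, a ChIP ratio of −0.02 and a fold ratio of −0.20 at 55 pairs. These medians were taken separately, and fold enrichment holds 1 added fragment in both ChIP and input, so they need not add up. Bowtie2, the aligner, places a read with several equal matches at 1 of them, and no mapping quality filter is given in the sources used here. The part of such reads in these values was not tested.

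The 2 strongest H3K9me3 members without a knockdown peak were of alpha satellite type, and the 2 strongest new in ΔLINC00662 were of other repeated sequence. The former were chr19:27738375-27738677, at 3.15 in NC with 2 CENP-B box cores, and chr10:42408149-42408432, at 7.25. Local input there in NC was 313 and 9.92 times the genome-wide level, and the nearest ΔLINC00662 peaks were 1748 and 5890 bp away. The strongest new members were on chromosome 2, chr2:91876717-91877057 at 5.46 and chr2:92236195-92236838 at 8.0. Their nearest H3K9me3 peaks in NC were 1858 and 253 bp away. Both new members had an H3K27me3 peak in NC, at 4.14 and 3.43. The strongest H3K27me3 member that had no peak in either knockdown was chr8:43092851-43093232, with 11.7 in NC, a GC content of 20.7% and no H3K9me3 peak. It was of unique sequence, with a −log10 q-value of 39.9 in NC, above the 27.9 of the printed H3K27me3 peak of that class.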

How the data were processed

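Reads were checked, trimmed and aligned to hg19 by the authors with FastQC 0.11.8, Cutadapt 3.3 and Bowtie2 2.4.2. After removal of duplicates with GATK, the 3 replicates per group were merged, and MACS2 2.2.7.1 called peaks, ChIP against input. Each deposited list gives a fold enrichment (ratio to local input) with −log10 p-values and −log10 q-values. A broad mark called as narrow peaks is split into many peaks, which affects counts.

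Members, distances and classes were computed from the files and the GRCh37 sequence with Python 3.11.15, numpy 2.4.6, scipy 1.17.1, pandas 2.3.3 and pysam 0.24.0. Local input and summit fragments were recovered from fold enrichment and p-value, which gave whole fragments for 100% of peaks, and the recovery was tested on simulated peaks. Genome-wide levels were 3.50 to 4.43 fragments. Overlap was 1 bp or more, and pairs overlapped 1 peak each. Genes came from GENCODE 44 lifted to GRCh37. Tiles of 1 kb replaced the random positions first planned as base rate.

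Named were the strongest member per list, the 2 strongest lost and new members per comparison, the 3 chromosomes with most NC members, the 5 best covered protein-coding genes of at least 5 kb per mark and the 3 best covered per gene list, of which some are given. Members and lists were chosen with earlier results of these data known, and class thresholds and the splits by GC content, strength and input after the values were seen.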

Additional observations from a re-analysis of the deposited data

How the results depend on the processing

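No paired analysis was possible because each list was called on merged replicates, and no replicate could be left out. Of 110 values recomputed, 76 stayed within the limit set for their kind, which was the counting interval for a share of peaks, the spread over chromosomes for a median log2 ratio or a share of base pairs, and 1.5 times for a count or a number ratio. With −log10 q-values of at least 5, the share of peaks in the windows was 3.56% in H3K27me3 NC, 7.45% in H3K9me3 NC and 11.4% in ΔLINC00662. The retained shares were then 37.4% (ΔLINC00641), 35.9% (ΔSETD5-AS1) and 42.2% (ΔLINC00662), with 50.3% of ΔLINC00662 members new. Without the chromosome with most NC members the shares of peaks were 2.89%, 2.33%, 2.26%, 6.33% and 8.54% (H3K27me3 NC, ΔLINC00641, ΔSETD5-AS1, H3K9me3 NC and ΔLINC00662), and ΔLINC00662 retained 49.5%. Without members of raised local input (over 5 times) the H3K9me3 shares were 6.70% and 8.88%, and 47.8% were retained. With local input over 10 times as the limit, the raised shares were 0.524%, 0.668%, 0.521%, 2.38% and 3.09% in the same order. An overlap of at least 50% gave retained shares of 26.4%, 29.3% and 37.8% and new shares of 51.4%, 54.2% and 55.7% (ΔLINC00641, ΔSETD5-AS1 and ΔLINC00662). Within 1 Mb of the gaps 35.6%, 39.0% and 57.4% were retained and, for H3K27me3, 33.3% and 37.4% were new, and the number ratio of ΔLINC00662 turned to 1.11. With peaks within 1 kb merged, ΔLINC00662 retained 52.4%. The cause of these moves was not tested. In all 3 comparisons the number ratio and the retained share kept their order between windows and rest, in 5 of 5 and 6 of 6 alternatives. The share of new members did not. Windows and rest changed order at −log10 q-values of at least 5 in all 3 comparisons, within 1 Mb of the gaps for both H3K27me3 comparisons, at an overlap of at least 50% for ΔSETD5-AS1 and with merged peaks for ΔLINC00662. Added after the values were seen, identity limits of 40% and 50% gave 67 and 66 H3K27me3 NC and 333 and 257 H3K9me3 NC members of alpha satellite type, 43 zinc finger genes had an H3K9me3 NC peak with a −log10 q-value of at least 5, and the median log2 ratio at GGAAT-rich pairs was −0.75 without raised input in both lists (28 pairs) and −0.89 without the chromosome with most such pairs (30 pairs). With a median of 19 to 22 fragments at a summit, a peak lost or new can differ by few fragments.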
